A study of Mus musculus with 24 samples.

Results

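Confluence is the point at which a culture of C2C12 mouse myoblasts has filled the dish and is given differentiating medium, and day 0 of this time course was sampled there. The day 0 cultures were compared with the cultures of the day before and of 2 days later, to find the genes whose signal on day 0 was above both neighbouring days or below both. Day 0 (confluent cells at the addition of differentiating medium), day -1 (proliferating cells, 1 day before that addition) and day 2 (cells after 2 days in differentiating medium) had 3 arrays each, so 9 of the 24 arrays entered the comparison. The remaining arrays covered days -2, 4, 6, 8 and 10 and were used for the estimate of the spread. All arrays held total RNA of the same unmodified cell line on 1 Affymetrix design, and the labels gave no composition of either medium. They also left unsaid if day 0 cells were harvested ahead of the medium change or following it, so confluence and a first response to that medium cannot be told apart in the day 0 values. Whether the arrays of a day came from separate dishes was not stated, and every p-value therefore speaks only of the spread among these arrays.

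A probe set was placed above both neighbours when the contrast of its day 0 mean with the average of the day -1 and day 2 means, on log2 intensities, had an adjusted p under 0.05 in limma (Benjamini-Hochberg over all tested probe sets) and its day 0 mean was higher than each neighbour's mean. The same rule in the other direction gave the probe sets below both. A stricter count asked that the differences from day -1 and from day 2 each passed on their own. Changes are given as day 0 minus its neighbours in mean log2 intensity, ± the standard error from the limma fit with 3 arrays a day, adjusted p-values come from the same fit, and single array values are deposited intensities on a linear scale. Values under the floor of 77 were raised to it before the fit, and a fold against a day with 2 or 3 arrays at that floor is written as "at least".

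Skeletal myoblasts leave the cell cycle before they fuse into multinucleated myotubes, and crowding is part of what makes C2C12 cells do so. The basic helix-loop-helix factors MyoD and myogenin drive the programme, Id proteins hold it back by sequestering their partners, and TGF-beta, activin and other secreted factors act on the balance. Cells in contact also lay down matrix and restrain their own division, while serum in growth medium feeds early response genes and sterol synthesis is tuned to the lipid that the medium supplies.

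Leaving out controls, 12422 probe sets were on the array and 8484 passed the filter for dim signals, of which 7635 named 1 gene and covered 6287 genes. Arrays of the same day correlated between 0.962 and 0.974, and arrays of different days among the 3 between 0.890 and 0.927. The 3'/5' signal ratio of Gapdh, which reads RNA integrity, ranged from 0.801 to 0.856 on day 0 and from 0.797 to 0.862 on days -1 and 2. The myoblast and myotube markers Myod1, Myf5, Des, Cdh15, Myog and Acta1 were all tested. Their summed intensity lay between 67150.7 and 80512.5 on day 0, against 21527.0 to 22879.9 on day -1 and 107297.7 to 114893.7 on day 2. Most of that rise lay in Acta1 (means 1024.8, 15154.3 and 61937.9 on days -1, 0 and 2) and Myog (633.2, 20132.9 and 26175.9). Myod1 was highest on day 0, Des and Cdh15 changed less, and Myf5 fell (830.3, 454.3 and 403.6). Of 9 macrophage and leukocyte markers, Ptprc, Itgam and Lyz2 were at the floor on all 3 day 0 arrays, whereas Cd14 (mean 1622), Laptm5 (476.4), Cd68 (323.6) and Csf1r (165.7) were above it on all 3, and their list summed to 2567.6 to 3072.1 on day 0, against 2871.5 to 3304.6 on day -1 and 2186.5 to 2727.2 on day 2. Of 6 endothelial markers, Cdh5, Tek, Tie1 and Vwf were at the floor on all 3 day 0 arrays and Pecam1 (343.3) and Kdr (208.4) were not, with sums of 391.6 to 1131.7 on day 0, 441.1 to 1154.8 on day -1 and 479.5 to 667.4 on day 2. None of these 6 tested markers was above or below both neighbours. Among 6 neural markers 4 were tested, and Tubb3 was below both (-0.58, with -0.425 on a probe set in neither group). The neural sums were 8215.2 to 11011.8 on day 0, 12063.9 to 14249.9 on day -1 and 13236.2 to 17073.8 on day 2. Neither of the 2 tested osteoblast and chondrocyte markers was called. In a wider list of such markers 5 were tested, and 2 of them were above both, 1 under the stricter rule. None of the 5 was below both (median 0.44).

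Day 0 lay above both neighbours in 849 probe sets (10.0% of those tested) and below both in 990 (11.7%). Under the stricter rule 424 probe sets (5.0%), naming 355 genes, were above both, and 385 (4.54%), naming 329 genes, were below both. Without any test, the day 0 mean was outside the range of the neighbours' means for 2805 probe sets upward and 2740 downward, and between them for 2939. All 3 day 0 arrays were above all 6 neighbouring arrays in 806 probe sets (9.50%) and below all 6 in 732 (8.63%), and 417 of the 424 and 370 of the 385 were separated in this way. The median contrast was 0.87 for the 424 and -0.83 for the 385. Both differences reached 1 log2 unit in 100 of the 424 and in 59 of the 385. The 2 differences share the day 0 arrays, so any error of the day 0 mean moves both in the same direction.

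**Figure D1:**
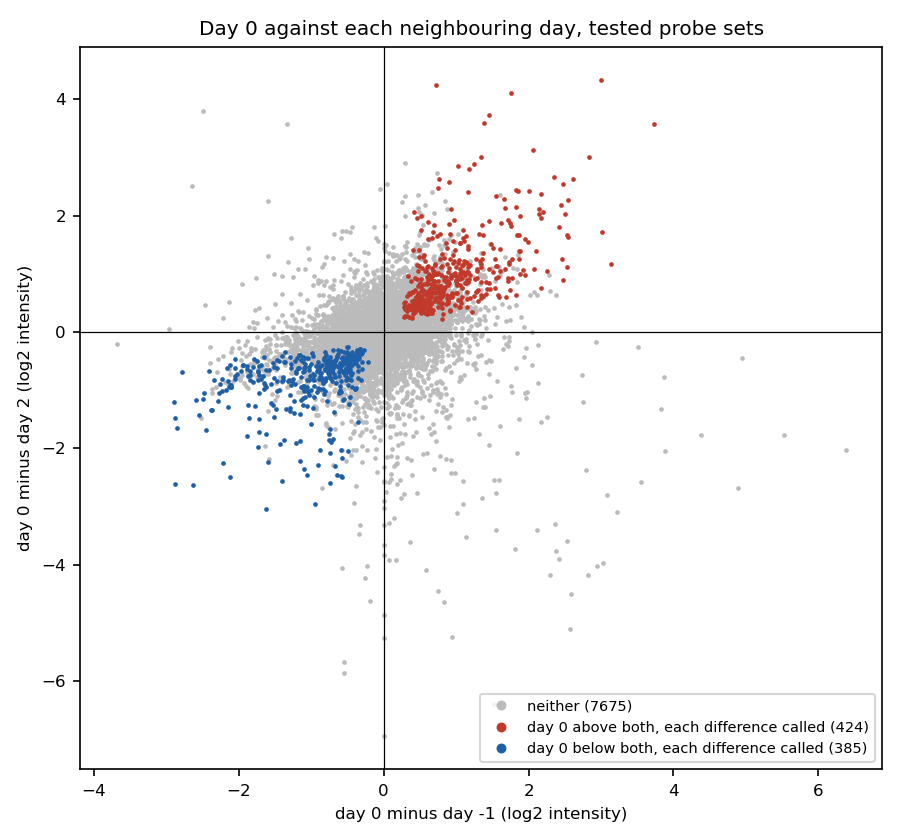
Difference of mean log2 intensity between day 0 and day -1 (x axis) and between day 0 and day 2 (y axis) for the 8484 tested probe sets, 1 point each. The 424 red points (upper right) were above both neighbours and the 385 blue points (lower left) below both with each difference called, while grey points were in neither group.

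At the threshold of the average contrast, Actn1 (0.21) and Uhmk1 (0.59) lay just inside with an adjusted p of 0.0499 in limma, and Pcbp4 (-0.59) and Pmm1 (-0.47) just outside with 0.0505 and 0.0506. The 9 arrays came from 3 chip lots and 7 scan days. Replicates 1 and 2 of day 0 were scanned on days that held no other array of the series, so a fit with scan day as a factor rested day 0 on its replicate 3 alone, and it left 150 probe sets above both and 142 below both, or 55 and 49 under the stricter rule. In that fit 423 of the 424 and 384 of the 385 had the same sign of the contrast. Its arrays had also entered the choice of these probe sets, so the kept sign is no separate check. The largest chip lot held 1 array of day -1, 2 of day 0 and 2 of day 2, and these arrays helped to choose the 424 and the 385. Probe sets called with those 5 arrays left out, where day 0 rested on its replicate 2 alone, were therefore read in that lot. The median contrast of those called above both was 1.04 without the lot and 0.86 in it, with the same sign for 99.4%. For those called below both the medians were -1.12 and -0.85, with the same sign for 93.8%. Not all of them lay outside both neighbours in the lot, and the shares over all tested probe sets were not counted. Replicate 3 of day 0 was scanned on the same day as replicate 1 of day 2, and within that pair the median of day 0 minus day 2 was 0.82 for the 424 and -0.79 for the 385, on arrays that also entered their choice. No scan day held day 0 and day -1 together.

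Extracellular matrix genes were among the largest peaks of day 0. Ogn, which encodes the small leucine-rich proteoglycan osteoglycin, had 4125.1, 2866.8 and 2772.7 on day -1, 19615.1, 23100.1 and 16758.2 on day 0 and 2931.3, 3359.8 and 3304.2 on day 2. Every day 0 array was thus at least 4 times as bright as every neighbouring one, and the contrast was 2.62 ± 0.31 (adjusted p = 9.62e-07), with 2.09 on another probe set of the gene. Islr, a secreted leucine-rich repeat protein, had 6119.9, 5724.6 and 4656.0 on day -1, 21809.1, 21264.5 and 22637.7 on day 0 and 4285.7, 3527.9 and 4456.0 on day 2. Its 3 day 0 arrays lay close together and far above the others, with a contrast of 2.22 ± 0.10 (adjusted p = 2.32e-13). Mgp, the matrix Gla protein that restrains calcification, had 3261.9, 3423.5 and 2265.3 on day -1, 17025.3, 17452.6 and 17058.7 on day 0 and 5687.5, 4911.9 and 6120.7 on day 2. Its day 2 arrays were also above those of day -1 (0.92, adjusted p = 1.25e-04), so the return after day 0 was partial.

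Of 29 tested proteoglycan and matricellular genes, 12 were above both neighbours, 8 of them under the stricter rule, and none was below both; the median contrast was 0.39, against -0.002 over all tested probe sets. Has2, the hyaluronan synthase, stood at 1.36 ± 0.16 (adjusted p = 1.16e-06) and Matn2, a matrilin, at 1.39 ± 0.18 (adjusted p = 1.92e-06), though another probe set of Matn2 did not pass (-0.57, adjusted p = 0.560). Collagen and basement membrane genes were above both in 14 of 39 cases and below both in 2, with a median of 0.13. Among them Col6a1, a chain of the microfibrillar collagen VI, had 3310.0, 2551.0 and 2230.2 on day -1, 9322.8, 9700.8 and 10438.8 on day 0 and 3887.8, 4363.5 and 3077.9 on day 2, and its groups did not overlap. Col3a1, a fibrillar collagen chain, stood at 1.19 ± 0.10 and Col4a1, a chain of basement membrane collagen, at 0.96 ± 0.08. Metalloproteinases and their inhibitors were above both in 9 of 16 cases and below both in 1 (median 0.43). Timp3, an inhibitor bound to matrix, had 18055.5, 17340.3 and 19928.7 on day 0, where no array of day -1 exceeded 8924.9 and none of day 2 exceeded 5574.1. Its contrast was 1.68 ± 0.15 (adjusted p = 1.13e-08), and that of Mmp14, a membrane-bound collagenase, was 0.67 ± 0.08.

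**Figure D2:**
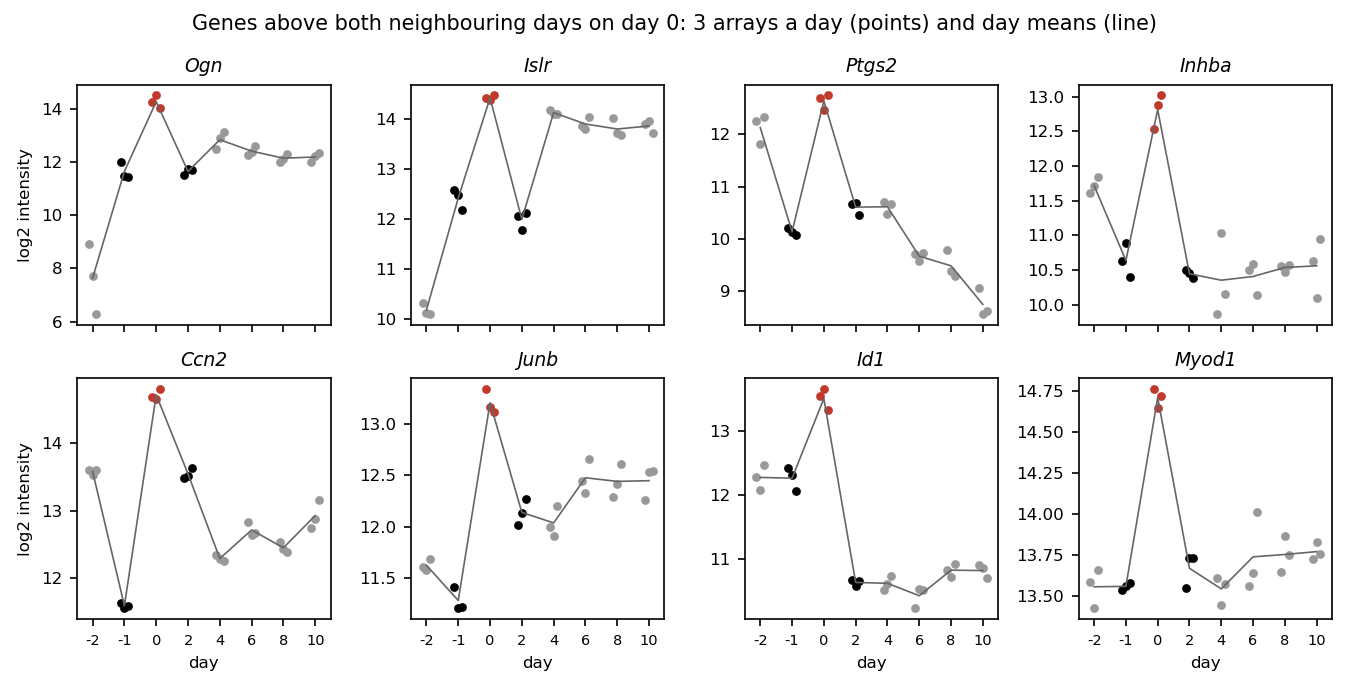
Log2 intensity of 8 genes above both neighbours on day 0, by day from -2 to 10, with 3 arrays a day as points (day 0 in red, days -1 and 2 in black, the other days in grey) and the day means joined by a line. The 3 red points lie above every black point in each panel, while the means of Ogn, Islr, Ccn2 and Junb are above their day -1 means on each day from day 4 on.

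Signalling ligands, receptors and inhibitors of the TGF-beta family peaked as well, with 13 of 35 tested members above both neighbours, 11 of them under the stricter rule, and 1 below both (median 0.20). Inhba encodes the subunit of activin A, a ligand that acts on myoblasts, and had 1578.0, 1889.7 and 1352.8 on day -1, 5943.4, 7574.2 and 8305.7 on day 0 and 1442.4, 1405.8 and 1332.9 on day 2. The groups did not overlap between day 0 and the other days, day 2 minus day -1 did not pass (-0.19, adjusted p = 0.619), and the contrast was 2.27 ± 0.20 (adjusted p = 8.45e-09). Tgfb1, the ligand TGF-beta 1, stood at 1.26 ± 0.17 (adjusted p = 4.23e-06). Acvr1, a type I receptor for BMP and activin ligands, had 1457.5, 1647.5 and 1337.4 on day 0, and its 6 neighbouring arrays lay between 367.2 and 550.9. Smad6, which inhibits BMP signalling inside the cell, stood at 1.23 ± 0.17 (adjusted p = 7.16e-06), and Ltbp2, a secreted protein related to those that hold latent TGF-beta in the matrix, at 0.95 ± 0.15 (adjusted p = 3.30e-05).

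Of 15 prostaglandin and retinoid genes 5 were above both and none below both (median 0.27). Ptgs2, the inducible cyclooxygenase 2 that makes prostaglandin precursors, had 1181.8, 1124.2 and 1071.0 on day -1, 6681.5, 5678.1 and 6877.3 on day 0 and 1629.0, 1655.0 and 1409.4 on day 2. Ptger4, a receptor for prostaglandin E2, had 499.5, 599.5 and 459.3 on day -1, 3040.3, 2019.5 and 1942.9 on day 0 and 534.7, 345.6 and 798.8 on day 2. The enzyme and the receptor were thus high together on day 0, with contrasts of 2.27 ± 0.14 (adjusted p = 4.75e-11) and 2.13 ± 0.27 (adjusted p = 1.85e-06). Of 38 chemokine, cytokine and receptor genes, 10 were above both and none below both (median 0.26). Cxcr4, the receptor of the chemokine CXCL12, had 2332.1, 2800.4 and 2803.4 on day 0, against 704.6, 633.1 and 561.9 on day -1 and 286.1, 358.3 and 271.0 on day 2. Il1rn, the interleukin 1 receptor antagonist, stood at 2.49 ± 0.25 and Socs2, a suppressor of cytokine signalling, at 1.36 ± 0.14. Il6, a cytokine that muscle cells also make, had 579.8, 235.7 and 396.4 on day 0, gave no array of day -1 above the floor and had 254.7, 319.5 and 155.1 on day 2. Its excess over day -1 was at least 2.30 ± 0.42, while that over day 2 did not pass (0.70, adjusted p = 0.276). Socs3 (-0.07, adjusted p = 0.790) and Ccl2 (-0.08, adjusted p = 0.826) did not pass, and Ccl2 lay between its neighbours.

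Growth factor and immediate early response genes had the largest list median among those above, 0.59, with 21 of 34 tested members above both neighbours, 14 of them under the stricter rule, and 1, Plk2, below both. Ccn2, a matricellular target of TGF-beta and of stretch, had 3156.8, 2998.5 and 3071.9 on day -1, 26476.3, 25896.6 and 28609.1 on day 0 and 11499.2, 11705.3 and 12680.9 on day 2. Its contrast of 2.15 ± 0.08 (adjusted p = 4.63e-15) combined a difference of 3.13 from day -1 with one of 1.17 from day 2. Egr2, an early growth response transcription factor, had 1400.6, 1301.0 and 1165.4 on day -1, 7638.3, 8090.5 and 6589.4 on day 0 and 3086.9, 3310.7 and 3855.7 on day 2. Both genes kept part of their rise on day 2, by 1.96 (adjusted p = 4.38e-14) and 1.41 (adjusted p = 1.02e-07) over day -1. Junb, an AP-1 subunit, stood at 1.49 ± 0.10 (adjusted p = 1.63e-10), Ccn1, a relative of Ccn2, at 1.57 ± 0.16 (adjusted p = 5.52e-08) and Errfi1, a feedback inhibitor of the EGF receptor, at 1.29 ± 0.09 (adjusted p = 3.85e-10). Not every early gene took part: Fosb (0.07), Atf3 (0.09) and Jund (0.09) were in neither group. Fos passed only narrowly (0.85 ± 0.30, adjusted p = 0.0406) with 1824.0 on 1 array of day -1, above every day 0 array (1382.7, 1074.1 and 1123.3), and its call ended with scan day as a factor (adjusted p = 0.673), in the fit of the 9 arrays alone (0.103), without the filter (0.0958), without the trend (0.0616), with the higher floor (0.0698) and in 7 of the 9 fits that left out 1 array.

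Inhibitors of myogenic factors and MyoD itself peaked on the same day. Id1 had 5473.0, 5059.2 and 4280.5 on day -1, 11963.3, 12922.3 and 10265.4 on day 0 and 1619.1, 1520.1 and 1610.2 on day 2. Id3 had 10232.5, 9817.1 and 10327.4 on day -1, 16042.7, 17918.2 and 16084.5 on day 0 and 996.1, 860.7 and 803.1 on day 2. In both, the day 2 arrays lay far below those of day -1 as well, so the peak was asymmetric: Id3 differed by 0.72 from day -1 and by 4.24 from day 2. Id2 (1.20 ± 0.14), the E-box repressor Snai1 (1.14 ± 0.18) and the Notch target Hes1 (0.70 ± 0.11) were the other 3 of 13 tested antagonists above both, and none of the 13 was below both (median 0.43). Myod1, the factor that specifies myoblasts, had 11920.7, 12103.5 and 12243.8 on day -1, 27721.2, 25619.9 and 26947.9 on day 0 and 11985.6, 13601.7 and 13615.3 on day 2. Every day 0 array was above every neighbouring one (contrast 1.09 ± 0.09, adjusted p = 1.51e-09), and day 2 minus day -1 did not pass (0.11, adjusted p = 0.487). Myog, the myogenin gene, was not a peak: it had 573.5, 786.4 and 539.8 on day -1, 17915.5, 14105.1 and 28378.2 on day 0 and 24491.4, 27176.7 and 26859.6 on day 2. Myf5 was not called either (-0.33, adjusted p = 0.357). Lef1, a transcription factor of the Wnt pathway, stood at 2.31 ± 0.30 (adjusted p = 3.01e-06) on 1 probe set and at 1.27 ± 0.10 on another.

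Genes of the actin cytoskeleton were more often above both than below both, and adhesion genes were split. Itga5, the integrin chain that binds fibronectin, had 955.8, 780.2 and 847.0 on day -1, 4212.9, 5279.8 and 4385.4 on day 0 and 1075.7, 1394.9 and 1529.3 on day 2. Of 37 adhesion genes 5 were above both and 6 below both (median 0.05). Of 24 genes of the smooth muscle type actin cytoskeleton, 11 were above both and 1 below both (median 0.28). Csrp1, a LIM protein of actin bundles, had 24815.7, 22199.1 and 25260.8 on day 0, and its 6 neighbouring arrays lay between 8884.2 and 10961.1. Vcl, the focal adhesion protein vinculin, stood at 0.79 ± 0.07 (adjusted p = 6.23e-09) and Lima1, which cross-links actin filaments, at 1.44 ± 0.13 (adjusted p = 1.13e-08).

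Lpl, the lipoprotein lipase that releases fatty acids from circulating lipid, had a contrast among the largest of all tested probe sets. It had 301.9, 391.7 and 326.3 on day -1, 2655.4, 2769.3 and 2668.0 on day 0 and 209.7, 148.9 and 75.7 on day 2, a contrast of 3.66 ± 0.34 (adjusted p = 2.52e-08), and another probe set gave 2.92. Adipocyte and lipid handling genes as a list were split, with 6 of 24 tested members above both and 7 below both (median 0.04). Of the 5 adipocyte markers on the array, Cebpa was also above both (0.94 ± 0.10), Pparg was not (0.14), and Fabp4 and Adipoq were too dim to be tested. Their summed intensity lay between 6588.1 and 6784.8 on day 0, against 3214.2 to 3277.9 on day -1 and 1657.2 to 2138.9 on day 2, and the part of other cell types in these changes was not tested. In bulk RNA, fewer cells of a kind and less RNA per cell cannot be told apart. Ptprv, a receptor type tyrosine phosphatase, had 68.3, 90.0 and 71.5 on day -1, 990.7, 1217.7 and 1036.0 on day 0 and 50.6, 119.7 and 80.1 on day 2. Its excess over day -1, with 2 arrays at the floor, was at least 3.73 ± 0.56, and that over day 2 was 3.58 ± 0.56. Other Ptprv probe sets were above both with smaller contrasts, 2.13 and 1.49, and the latter did not pass the stricter rule. Apoe, a lipid carrier, had 225.7, 757.3 and 520.1 on day 0, with 2 arrays of day -1 and all 3 of day 2 at the floor.

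Genes of the lysosome were above both in 12 of 35 cases and below both in none, with a median of 0.25. Ctsb, the protease cathepsin B, stood at 0.89 ± 0.07 (adjusted p = 1.84e-09) and Lamp2, a protein of the lysosomal membrane, at 0.91 ± 0.15 (adjusted p = 4.09e-05). Metallothionein, antioxidant and glutathione genes were above both in 10 of 34 cases and below both in 3. Mt1, a metal-binding metallothionein, had 10984.7, 14326.5 and 11960.5 on day 0, against 7381.9, 7700.5 and 6680.7 on day -1 and 1917.9, 2099.1 and 2015.3 on day 2. F3, the tissue factor that starts coagulation, had 2141.1, 2291.1 and 1981.9 on day 0, against 805.3, 713.3 and 818.8 on day -1 and 170.7, 193.0 and 125.9 on day 2, a contrast of 2.59 ± 0.25 (adjusted p = 3.29e-08). In both, the day 2 arrays were also below those of day -1. Gpx3, the secreted glutathione peroxidase, stood at 1.77 ± 0.14 (adjusted p = 1.92e-09).

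**Figure D3:**
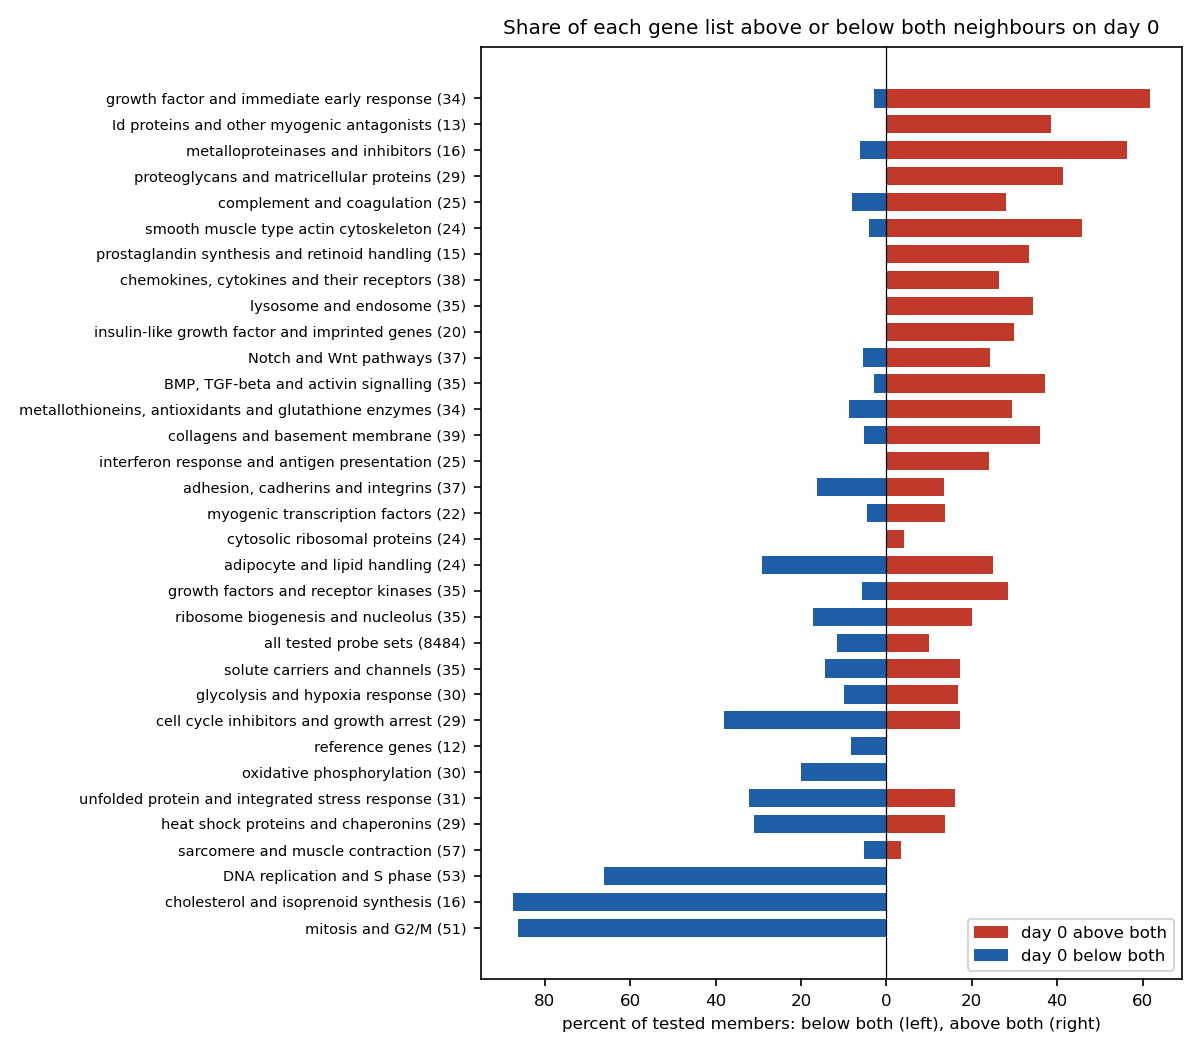
Percent of the tested members of each gene list (number in brackets) that lay above both neighbours (red, to the right) or below both (blue, to the left) on day 0, ordered by the median contrast; lists with fewer than 10 tested members are left out. For all tested probe sets the shares were 10.0% and 11.7%, and the mitosis, DNA replication and cholesterol lists had no member above both.

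Genes of cell division were the most numerous of the lists below both neighbours. Of 51 tested mitosis and G2/M genes 44 were below both, 28 of them under the stricter rule, and none was above both; the median contrast was -1.22. Ect2, which starts the cleavage furrow, had 2068.6, 2343.3 and 3227.3 on day -1, 422.4, 311.0 and 287.3 on day 0 and 785.3, 771.0 and 749.4 on day 2. Smc2, a core subunit of condensin, had 4512.2, 4729.8 and 6149.6 on day -1, 1297.1, 1114.3 and 1069.5 on day 0 and 2136.1, 2425.0 and 2147.5 on day 2. Both genes were at their lowest of the 3 days on day 0 in all arrays, and their day 2 arrays lay between the other days. Mad2l1, of the spindle checkpoint, stood at -1.53 ± 0.20 (adjusted p = 2.97e-06) and Anln, the furrow protein anillin, at -1.38 ± 0.17 (adjusted p = 9.62e-07). Over the list the median difference was -1.75 from day -1 and -0.57 from day 2, and 47 of the 51 were lower on day 2 than on day -1 (14.0% of all tested probe sets were). The 7 members in neither group included Birc5, the survivin gene, which was lower than on day -1 by 1.75 and higher than on day 2 by 0.16.

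DNA replication and S phase genes were below both in 35 of 53 cases, 13 under the stricter rule, and above both in none (median -0.78). Asf1b, a chaperone that hands histones to new chromatin, had 2776.4, 3033.8 and 3552.1 on day -1, 396.7, 544.3 and 347.8 on day 0 and 1274.8, 1135.4 and 1111.0 on day 2. Rrm1, the large subunit of ribonucleotide reductase, had 7782.2, 7632.0 and 8131.8 on day -1, 1596.5, 1907.3 and 1391.8 on day 0 and 3240.1, 3231.4 and 3647.0 on day 2. Their contrasts were -2.18 ± 0.18 (adjusted p = 3.40e-09) and -1.67 ± 0.19 (adjusted p = 6.01e-07). Ccnd1, the G1 cyclin D1, did not share the shape: it was lower on day 0 than on day -1 by 1.22 (adjusted p = 5.13e-05) and at 0.22 against day 2 (adjusted p = 0.523).

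Cholesterol and isoprenoid synthesis was below both in 14 of 16 tested enzymes, 8 of them under the stricter rule, and a median of -1.04. Hmgcs1, which makes the substrate of the rate-limiting reductase, had 4029.0, 3846.9 and 3948.0 on day -1, 2268.4, 1921.5 and 2951.1 on day 0 and 9341.0, 8153.9 and 7929.7 on day 2. Idi1, which isomerises the first isoprenoid unit, had 5221.4, 4867.4 and 4711.7 on day -1, 1629.8, 2052.4 and 1938.9 on day 0 and 11181.1, 10175.1 and 11579.7 on day 2. Unlike the division genes these enzymes were higher on day 2 than on day -1, by 1.10 (adjusted p = 3.76e-06) and 1.15 (adjusted p = 3.02e-08), and so were 13 of the 16 (11.9% of all tested probe sets were). Dhcr7, which makes cholesterol in its last step, had 543.3, 586.9 and 592.8 on day -1, 146.5, 182.5 and 243.7 on day 0 and 1448.6, 1629.0 and 1535.4 on day 2, with a contrast of -2.33 ± 0.17 (adjusted p = 4.14e-10). Fdps, the farnesyl diphosphate synthase, stood at -1.27 ± 0.09, with -1.30 on another probe set and 0.78 on 1 more that was in neither group. Sc5d (-0.84, adjusted p = 0.0516) and Hsd17b7 (-0.50, adjusted p = 0.420) were the 2 that did not pass. Srebf1, a transcription factor of lipid synthesis genes, was lower than on both days (-0.53 ± 0.09, adjusted p = 1.31e-04), as were Elovl6 (-1.61 ± 0.16), Scd2 (-0.80 ± 0.08, with -0.21 on a probe set in neither group) and Acly (-0.77 ± 0.13), which elongate, desaturate and supply precursors of fatty acids.

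The 250 bases before the start of 4 of these genes are shown because members of the cholesterol and mitosis lists were low together. They are RefSeq sequences of build GRCm38.p6, written in the direction of the gene. Capitals mark CCAAT on either strand (ATTGG on the reverse), the box bound by NF-Y, and, for Hmgcs1, a match to TCACNCCAC, a form of the sterol regulatory element, or, for Ect2 and Smc2, TTTGAA on either strand (TTCAAA on the reverse), the core of the cell cycle homology region.
Hmgcs1 (chr13:119690101-119690350, + strand): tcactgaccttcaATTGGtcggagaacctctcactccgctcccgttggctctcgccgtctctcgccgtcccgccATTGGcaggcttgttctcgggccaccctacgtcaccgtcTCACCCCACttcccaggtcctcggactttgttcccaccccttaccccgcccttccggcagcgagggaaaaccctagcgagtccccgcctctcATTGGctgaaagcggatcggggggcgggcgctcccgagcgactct
Idi1 (chr13:8885356-8885605, + strand): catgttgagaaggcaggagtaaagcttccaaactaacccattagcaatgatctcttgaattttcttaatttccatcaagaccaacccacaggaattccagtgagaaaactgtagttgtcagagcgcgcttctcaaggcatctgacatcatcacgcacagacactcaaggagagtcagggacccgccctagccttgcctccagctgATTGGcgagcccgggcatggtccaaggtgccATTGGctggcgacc
Ect2 (chr3:27153879-27154128, - strand): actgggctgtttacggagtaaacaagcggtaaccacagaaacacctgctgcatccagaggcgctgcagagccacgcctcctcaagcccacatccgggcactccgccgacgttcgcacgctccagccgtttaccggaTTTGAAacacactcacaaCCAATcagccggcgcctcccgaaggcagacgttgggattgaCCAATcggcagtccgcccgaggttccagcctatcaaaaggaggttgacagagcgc
Smc2 (chr4:52438971-52439220, + strand): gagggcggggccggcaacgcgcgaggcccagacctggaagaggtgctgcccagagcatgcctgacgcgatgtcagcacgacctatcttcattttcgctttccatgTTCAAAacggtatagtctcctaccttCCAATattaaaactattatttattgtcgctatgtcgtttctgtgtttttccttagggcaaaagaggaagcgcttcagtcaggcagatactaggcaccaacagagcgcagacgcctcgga
Of the 44 mitosis genes below both, 37 had a window in the table, and 28 of these (75.7%) held CCAAT, against 36.0% of 5045 windows of tested genes and 34.5% of all 27025 windows. TTTGAA was in 15 of the 37 (40.5%), against 10.7% of the windows of tested genes. Among the 31 windows of replication genes below both, 20 (64.5%) held CCAAT. The 329 genes below both under the stricter rule had 271 windows, of which 134 (49.4%) held it. Windows were at hand for 11 of the 14 cholesterol genes, under the 80% set as a minimum, so a share over that list is void. Among these 11, Hmgcs1 alone held TCACNCCAC, so its window is not typical of the list, and Dhcr7 held neither TCACNCCAC nor CCAAT. Of the mitosis genes named, Anln and Mad2l1 held neither CCAAT nor TTTGAA. Of the other motifs searched on both strands in the 37 mitosis windows, GGAATG (TEAD) was in 18.9% against 10.5% of tested genes, TTTNGCGC (E2F) in 5.41% against 2.0%, TGATGNAA (ATF4 with C/EBP) in 2.7% against 1.94%, and TGANTCA (AP-1, 4.94% of tested genes), TGACGTCA (cyclic AMP response element, 2.56%) and TCACNCCAC (0.991%) were in none. A match describes the letters of the window and not binding.

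**Figure D4:**
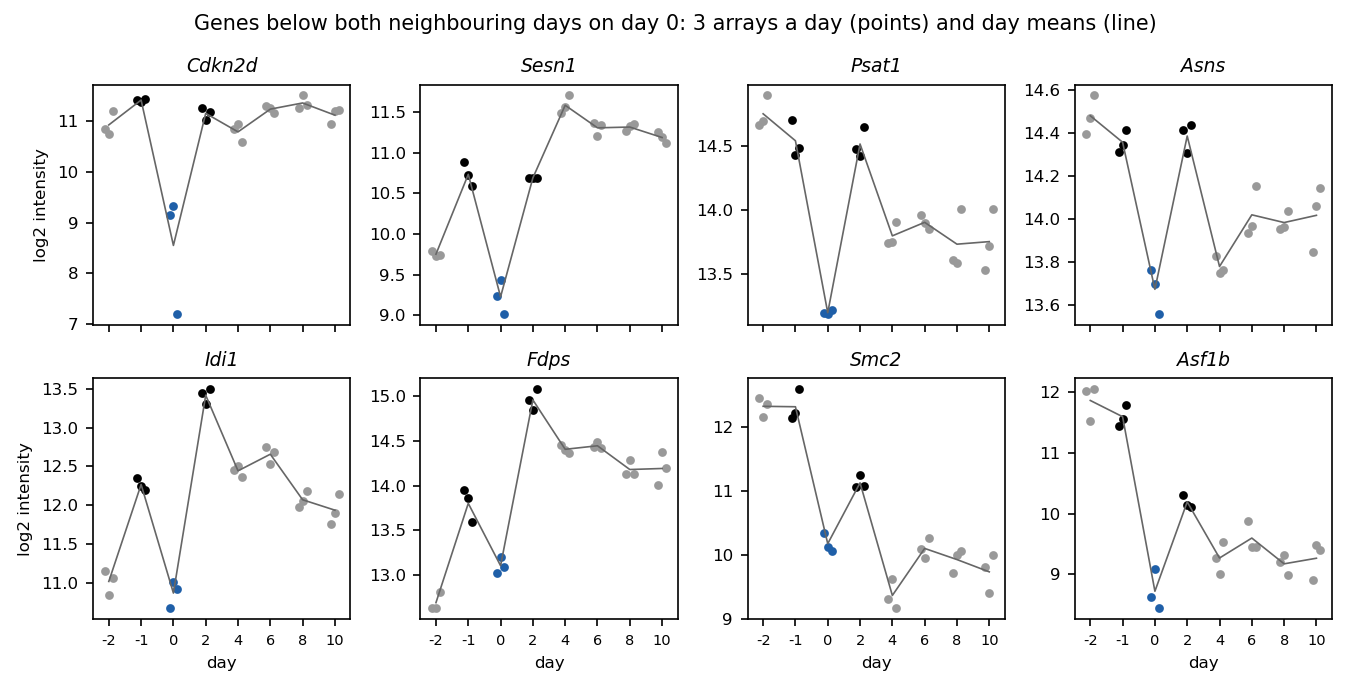
Log2 intensity of 8 genes below both neighbours on day 0, by day from -2 to 10, with 3 arrays a day as points (day 0 in blue, days -1 and 2 in black, the other days in grey) and the day means joined by a line. Cdkn2d, Sesn1, Psat1 and Asns were back near their day -1 level on day 2, Idi1 and Fdps overshot it, and Smc2 and Asf1b stayed below it.

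Several growth arrest genes dipped on day 0. Cdkn2d, the cyclin-dependent kinase inhibitor p19, had 2747.5, 2682.6 and 2802.2 on day -1, 564.5, 638.2 and 145.2 on day 0 and 2446.6, 2099.8 and 2326.5 on day 2. Replicate 3 of day 0 was well below the other 2, and all 3 were below the neighbouring arrays. Its contrast of -2.74 ± 0.27 had an adjusted p of 6.52e-08. Sesn1, a sestrin that restrains mTORC1, had 1893.6, 1702.2 and 1539.6 on day -1, 604.8, 691.1 and 515.8 on day 0 and 1653.4, 1653.7 and 1658.0 on day 2, and day 2 minus day -1 did not pass (-0.04, adjusted p = 0.850). The cyclins G1 (Ccng1, -1.04 ± 0.15) and G2 (Ccng2, -1.09 ± 0.10), both linked to growth arrest, had the same shape. In all, 11 of 29 cell cycle inhibitor and growth arrest genes were below both and 5 above both. Btg2, an antiproliferative gene, was among those 5 (1.06 ± 0.11). Cdkn1a, the inhibitor p21, had 3382.3, 3529.0 and 3767.8 on day 0, inside the range of day -1 (2901.0 to 6040.3) and far below day 2 (14800.0 to 21139.6).

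Of 31 genes of the unfolded protein and integrated stress responses, 10 were below both and 5 above both (median -0.18). The integrated stress response is the programme that ATF4 drives when amino acids run short. Psat1, an enzyme of serine synthesis, had 26608.9, 22084.0 and 22950.6 on day -1, 9345.2, 9295.3 and 9510.2 on day 0 and 22748.7, 21951.9 and 25630.7 on day 2. Asns, asparagine synthetase, had 20344.2, 20832.2 and 21844.6 on day -1, 13898.7, 13311.3 and 12042.2 on day 0 and 21832.1, 20295.3 and 22198.7 on day 2. In both genes every day 0 array was below every neighbouring one, and day 2 minus day -1 did not pass (-0.03, adjusted p = 0.915, and 0.03, adjusted p = 0.860). Psph, which completes serine synthesis, stood at -1.06 ± 0.10 and Ddit3, the stress factor CHOP, at -1.06 ± 0.25. With the 5 lot arrays of the 3 days left out, Ddit3 stood at -0.44 (adjusted p = 0.581). Among the 5 above both were Dnajc3 (0.74 ± 0.18, with 0.41 and 0.23 on probe sets in neither group), Xbp1 (0.64) and Hspa5 (0.32), which belong to the response to unfolded protein in the endoplasmic reticulum. Atf4 itself did not pass (0.03).

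The remaining large dips were in genes of other kinds. Hoxa7, a homeobox transcription factor, had 659.5, 467.3 and 502.2 on day -1, 108.8, 63.1 and 72.9 on day 0 and 339.4, 681.3 and 668.6 on day 2, a deficit of at least 2.64 ± 0.46 against each neighbour, with 2 day 0 arrays at the floor. Pard6a, a cell polarity protein, stood at -2.23 ± 0.26 (adjusted p = 6.45e-07) and Rangap1, which drives the Ran cycle of nuclear transport, at -1.99 ± 0.14 (adjusted p = 4.46e-10). Stip1, a co-chaperone between Hsp70 and Hsp90, stood at -0.86 ± 0.11 (adjusted p = 1.39e-06), and 9 of 29 heat shock and chaperonin genes were below both and 4 above both.

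The other lists differed among themselves. Notch and Wnt pathway genes were above both in 9 of 37 cases and below both in 2. Growth factor and receptor kinase genes were so in 10 and 2 of 35 cases, and complement and coagulation genes in 7 and 2 of 25. Insulin-like growth factor and imprinted genes were above both in 6 of 20 cases and below both in none. For interferon response and antigen presentation genes it was 6 of 25 and none. Ribosomal proteins were above both in 1 of 24 cases and below both in none (median 0.05), oxidative phosphorylation genes in none and 6 of 30 (median -0.18), and reference genes in none and 1 of 12, which was Hprt (-0.44 ± 0.09). Of 57 sarcomere genes 2 were above both and 3 below both, and 52 of the 57 were higher on day 2 than on day -1. Mef2c, a muscle transcription factor, counted as below both only through its rise by day 2: it had 39.3, 55.8 and 126.1 on day 0, against 134.1, 224.1 and 77.2 on day -1 (-0.55, adjusted p = 0.408) and 5049.9, 4957.5 and 3993.4 on day 2. Another Mef2c probe set was below both too, at -0.18 against day -1. Its remaining probe sets were in neither group, at 0.58 and 0 against day -1. Igf2, the growth factor that muscle cells secrete, lay between its neighbours, at 1014.6, 720.7 and 1114.9 on day -1, 10659.4, 14350.4 and 15195.9 on day 0 and 31757.1, 30568.4 and 37101.8 on day 2.

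The comparison of day 2 with day -1 does not use the day 0 arrays. All of its arrays entered the choice of the 424 and the 385, however, so its counts describe them and are no separate measure of a return. Among all tested probe sets 11.9% were higher and 14.0% lower on day 2 than on day -1. Of the 424 above both under the stricter rule, 72 (17%) were higher, 67 (15.8%) lower and 285 not called. Of the 385 below both, 41 (10.6%) were higher, 108 (28.1%) lower and 236 not called. Later on, 114 of the 424 were higher on day 10 than on day 2 and 43 lower, where 6.52% and 7.26% of all tested probe sets were, and 15 of the 385 were higher and 135 lower. The last comparison shares the day 2 arrays with the choice of these probe sets, which favours a low day 2 among the 424 and a high day 2 among the 385. Day 0 was the highest of all 8 days for 333 of the 424 and the lowest for 252 of the 385. Over all tested probe sets it was so for 13.7% and 13.5%, that is for 1163 of the 2805 above both neighbouring means and 1143 of the 2740 below both. The 424 and 385 were chosen for a day 0 beyond 2 of the other days, so these shares describe them and test nothing. For 40 of the 424 the highest mean was on day 4, and for 54 of the 385 the lowest mean was on day 4.

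**Figure D5:**
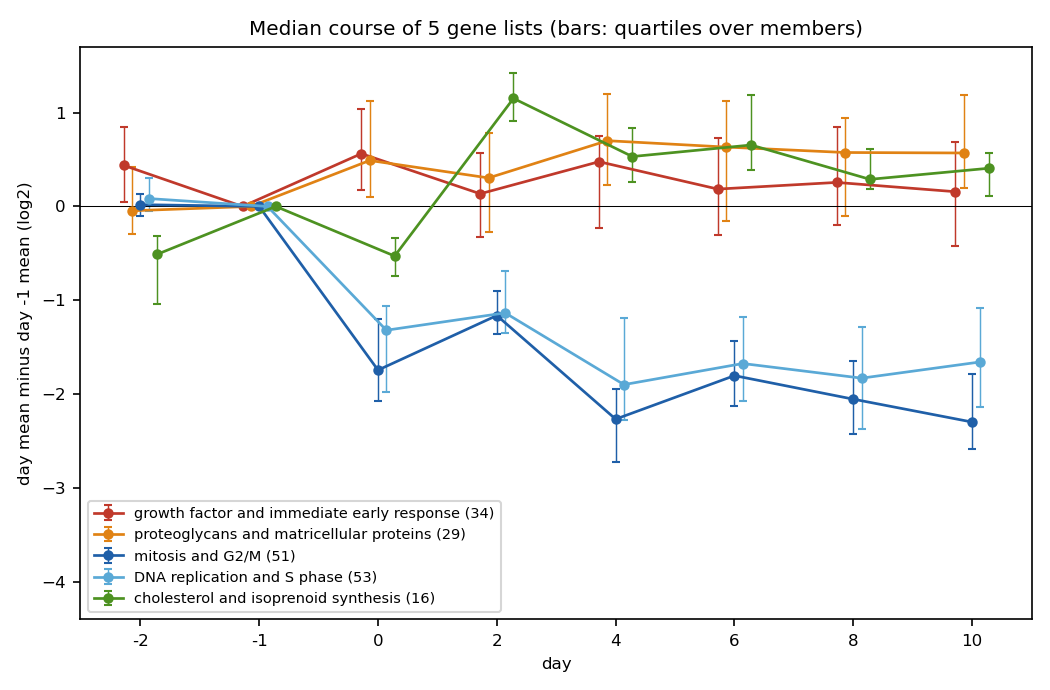
Median over the tested members of 5 gene lists (number in brackets) of the day mean minus the day -1 mean, on the log2 scale, by day, with bars from the lower to the upper quartile over members. For mitosis the median reached -1.75 by day 0, then -1.16 (day 2) and -2.27 (day 4), and the cholesterol median was -0.53 on day 0 and 1.15 on day 2.

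The course of the lists over all days placed these shapes. Relative to day -1 the mitosis median stood at 0.02 (day -2), -1.75 (day 0), -1.16 (day 2) and -2.27 (day 4), so the higher level of day 2 was followed by a lower one, and 44 of the 51 genes were lower on day 10 than on day 2. That of cholesterol synthesis stood at -0.51 (day -2), -0.53 (day 0), 1.15 (day 2) and 0.53 (day 4), so day 0 stood near the level of day -2. The early response median stood at 0.44 (day -2), 0.56 (day 0) and 0.13 (day 2), and day -1 was the lowest of the 8 days for this list. Ptgs2 and Inhba had mean intensities of 4545 and 3377 on day -2, above their day -1 arrays and below their day 0 arrays. Islr, at a mean of 1163 on day -2, rose again after day 2, by 1.87 on day 10 (adjusted p = 2.79e-10), and so did Mgp by 2.04 (adjusted p = 1.71e-08) and Col3a1 by 1.35 (adjusted p = 1.71e-08).

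Of the genes described, the calls of Lpl, Ptprv, Apoe, Acvr1, Ptger4, Cebpa, Smad6, Ltbp2, Matn2, Hes1, Hoxa7, Rrm1, Psph, Acly, Srebf1, Il6, F3, Fos, Mef2c, Dnajc3, Hprt, Tubb3 and 1 probe set of Lef1 ended with scan day as a factor, with the sign of the contrast kept. Tubb3 stood at only -0.08 in that fit. That fit also moved Cdkn2d to -4.28, Tgfb1 to 2.00, Ddit3 to -2.11 and Cdkn1a to -0.77. With day 0 resting on 1 array in that fit, fewer mitosis, replication, cholesterol, stress response, growth arrest and heat shock genes were below both. Fewer early response, lysosome, proteoglycan, collagen, metalloproteinase, TGF-beta, cytokine, prostaglandin, actin cytoskeleton and antioxidant genes were above both. Leaving out the 5 lot arrays also left day 0 on 1 array, its replicate 2. The calls of Dnajc3, Hprt, Il6, Srebf1 and Fos ended there too, and each of these lists again had fewer members called.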

How the data were processed

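Total RNA of C2C12 cells was measured on 24 Affymetrix MG_U74Av2 arrays, 3 for each of 8 days. The values are probe set intensities on a linear scale, deposited by the authors as 1 signal per probe set and array, and the program settings behind them are not given in the sources used here. Values were floored at their 20th percentile (77) and taken to log2, and probe sets with a day mean over the 40th percentile (277.7) on at least 1 day were tested (8484). limma 3.58.1 in R 4.3.3 fitted the 8 day means over all 24 arrays with a trended prior (16 residual degrees of freedom), 2-sided, with Benjamini-Hochberg adjustment over all tested probe sets. The number of arrays limits the precision. Figures were drawn with matplotlib 3.10.9 in Python 3.11.15.

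The members and lists were chosen with earlier results of these data known. Named genes were the 15 with the largest lesser difference in each direction, up to 6 of each list that passed, and 18 fixed genes. Other genes were named after their values were seen. A gene in a list was read by its probe set with the highest mean. Alternatives covered normalization, floor, filter, prior, batches, each of the 9 arrays of days -1, 0 and 2 left out, and the replicate number as a block. Deviations from the day means of same-numbered arrays correlated between -0.108 and 0.064 over 9 pairs, and those of differently numbered arrays between -0.117 and 0.165 over 18. These values show no clear effect of the number, and they cannot tell if same-numbered arrays came from 1 series of cultures. The script was tested on simulated data with known changes.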

Additional observations from a re-analysis of the deposited data

How the results depend on the processing

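Quantile normalization, other floors, a pseudocount, no filter, the random blocks and each of the 9 arrays of days -1, 0 and 2 left out in turn kept every count of probe sets above or below both neighbours within 1.5 times. With the replicate number as a block the counts were 862 above and 995 below both, or 440 and 410 with each difference called. Scan day as a fixed factor, which rests day 0 on 1 array, gave 150 and 142, or 55 and 49 with each difference called. The largest chip lot alone gave 262 and 228 with each difference called. In 2 settings added after seeing the data, the third day 0 array alone gave 416 and 546, or 216 and 206, and leaving out the 5 arrays of that lot gave 346 and 352, or 160 and 77. For day 2 against day -1 the higher and lower counts were 374 and 230 with scan day, 611 and 554 in the largest lot and 537 and 445 without it, and for day 10 against day 2 they were 155 and 143, 203 and 308, and 163 and 145. Six4 turned to -0.35 with scan day (adjusted p = 0.753 in limma). These settings use fewer arrays or fewer degrees of freedom. Day 0 shared no scan day with day -1, so scan day and that difference cannot be told apart beyond the values given.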
